A study of Homo sapiens with 12 samples.

Results

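The IL-6 family is described here by 10 genes in 2 human liver lines: the ligands IL6, LIF and IL11, the receptors IL6R, IL6ST, OSMR and LIFR, the kinase JAK1, the transcription factor STAT3 and the inhibitor SOCS3. They were taken by gene name from the 60612 genes of the deposited HCCLM3 table and the 32507 of the LX2 table, and all 10 were present in both and passed the filter on low counts in every comparison. RNA sequencing was done on 12 libraries in 4 groups of 3. The groups were HCCLM3 with LX2, HCCLM3 alone, LX2 with HCCLM3 and LX2 alone, each held in a tumor chip device. HCCLM3 is a hepatoma line. LX2 derives from hepatic stellate cells, the collagen-making cells of the liver. Both are labelled WT, and each is a single established line, so the results describe these lines. Whether the 3 libraries of a group stem from separate cultures is not stated in the labels; p-values here reflect only library-to-library spread, which may be technical.

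Cytokines of the IL-6 family signal through gp130, the shared receptor chain encoded by IL6ST. IL-6 needs IL6R, IL-11 needs IL11RA, LIF pairs gp130 with LIFR, and oncostatin M pairs it with OSMR. The chains carry JAK kinases that phosphorylate STAT3, which enters the nucleus and switches on target genes. SOCS3 is such a target, and it binds gp130 and JAKs and shuts the signal down. In the liver this pathway drives the acute phase response of hepatocytes, and a soluble form of IL6R lets cells that lack the receptor respond to IL-6.

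Libraries held 61836616 to 77712308 counts. The markers fitted each label only in part. Hepatocyte markers summed to 35.3 to 47.1 CPM (counts scaled to a common library size) in HCCLM3 with LX2 and 23.8 to 39.1 CPM in HCCLM3 alone, against 1.304 to 1.95 CPM in LX2 with HCCLM3 and 0.842 to 1.55 CPM in LX2 alone, and TTR was at 0 in all groups but HCCLM3 alone. The HCCLM3 sums hide opposite moves. ALB had 833, 968 and 962 counts with LX2 and 221, 156 and 118 alone. TF had 718, 728 and 856 counts with LX2 and 188, 136 and 201 alone. HNF4A went the other way, with 520, 1286 and 583 counts with LX2 and 2451, 1331 and 1357 alone. Of 13 stellate and fibroblast markers, COL1A2, COL6A3, SPARC and LRAT were at 0 in LX2 alone, and LUM was 10.97 FPKM in HCCLM3 alone and 1.02 FPKM in LX2 alone. The list summed to 85.1 to 161.3 CPM in HCCLM3 with LX2 and 94.9 to 136.7 CPM in HCCLM3 alone, against 1056 to 1249 CPM in LX2 with HCCLM3 and 1013 to 1219 CPM in LX2 alone. Most of the LX2 sum was VIM, with 58578 to 75355 counts per library in LX2 alone. Markers of red cell precursors stood apart in HCCLM3 with LX2, where 8 genes summed to 9032, 6522 and 7643 counts, against 0, 6 and 4 counts in HCCLM3 alone. Markers of granulocyte precursors, 9 genes, summed to 907, 763 and 623 counts in HCCLM3 with LX2 and were all at 0 in HCCLM3 alone. In LX2 the red cell list summed to 4, 112 and 33 counts with HCCLM3 and 6, 15 and 11 counts alone. The 12 leukocyte markers summed to 78.3 to 97.2 CPM in HCCLM3 with LX2 and 57.8 to 67.6 CPM in HCCLM3 alone, where LAPTM5, CSF1R, TYROBP, CD3E and MS4A1 were at 0. Epithelial markers summed to 3450 to 4308 CPM in HCCLM3 with LX2 and 5806 to 6597 CPM in HCCLM3 alone. That fall was one of KRT8, KRT18 and KRT19. CDH1 went the other way, with 2.65 FPKM in HCCLM3 with LX2 and 1.17 FPKM in HCCLM3 alone, and so did EPCAM, with 0.360 and 0.178 FPKM. Endothelial markers summed to 69.95 to 76.5 CPM in HCCLM3 with LX2 and 138 to 167.1 CPM in HCCLM3 alone. Most of that sum was ESAM (13.7 and 32.8 FPKM), while CDH5 and TIE1 were at 0 in both groups. The sums of these 5 lists moved with every HCCLM3 result below, and the part of the lists in those results was not tested.

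The promoters below are shown because their genes carry the ligand and STAT3 results: IL6 is the ligand that separates the lines, IL11 the ligand that rose most in LX2, STAT3 the gene that moved in opposite directions, and LIFR a receptor that rose in LX2. Each is the stretch of 250 bases before the RefSeq start (GRCh38.p14), 5′ to 3′ on the gene's strand, with motif matches in capitals.
IL6, chr7:22726950-22727199, plus strand: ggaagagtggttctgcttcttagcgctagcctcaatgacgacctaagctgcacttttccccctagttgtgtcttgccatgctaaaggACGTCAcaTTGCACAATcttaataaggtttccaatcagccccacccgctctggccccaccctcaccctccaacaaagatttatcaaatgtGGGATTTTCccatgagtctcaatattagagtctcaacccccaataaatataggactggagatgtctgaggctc
IL11, chr19:55370464-55370713, minus strand: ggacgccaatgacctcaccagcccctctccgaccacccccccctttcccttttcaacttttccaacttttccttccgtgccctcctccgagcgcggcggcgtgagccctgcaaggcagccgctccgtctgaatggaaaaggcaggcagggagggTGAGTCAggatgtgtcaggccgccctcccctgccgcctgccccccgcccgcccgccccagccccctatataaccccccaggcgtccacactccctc
LIFR, chr5:38595406-38595655, minus strand: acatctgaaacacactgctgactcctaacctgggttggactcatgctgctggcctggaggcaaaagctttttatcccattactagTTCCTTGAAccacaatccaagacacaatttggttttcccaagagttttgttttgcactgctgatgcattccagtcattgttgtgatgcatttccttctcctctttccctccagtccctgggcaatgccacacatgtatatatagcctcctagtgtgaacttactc
STAT3, chr17:42388443-42388692, minus strand: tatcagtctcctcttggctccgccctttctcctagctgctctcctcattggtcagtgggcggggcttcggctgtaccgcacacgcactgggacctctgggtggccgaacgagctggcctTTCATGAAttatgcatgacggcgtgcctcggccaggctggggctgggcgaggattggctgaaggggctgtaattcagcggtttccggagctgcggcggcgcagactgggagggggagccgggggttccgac

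RefSeq windows, which run from 250 bases before to 50 after a start, were found for 9 of the 10 genes, 14 windows in all; LIF had none. TTCNNNGAA, the letters of a STAT dimer site, was searched on both strands and lay in 2 of the 14 windows, both of LIFR, against 7.66% of all 35116 windows. Another window of LIFR, chr5:38556597-38556896, held no motif match and is not printed. The STAT form with a shorter spacer, TTCNNGAA, was not planned. It lay in 4 of 14, those of JAK1, IL6R, STAT3 and SOCS3, against 7.74% of all windows, which is a description. The letters that follow were also not planned and were chosen after the windows were seen. In IL6 these were GGGATTTTC, letters of an NF-kB site (0.262% of all windows), TTGCACAAT, of a C/EBP site (0.194%), and ACGTCA, part of a cyclic AMP response element (7.98%). In IL11 they were TGAGTCA, of an AP-1 site (4.95%). Of the 14 windows, ACGTCA on either strand lay in 2, those of IL6 and JAK1, and TGAGTCA in 2, those of IL11 and IL6R. None of these motifs overlapped in the stretches printed. Matches describe letters, not binding. The IL6 window lies 1316 bases downstream of the gene start in the tables, and the SOCS3 windows lie 848 bases upstream and 410 downstream of it.

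The first question was which line makes ligand and which makes receptor. Levels are given as FPKM, a fragment count divided by the length of the gene and the size of the library. In the lines grown alone, IL6 marked LX2 and IL6R marked HCCLM3, while gp130, OSMR, LIFR, JAK1 and STAT3 were all higher in LX2. By the edgeR quasi-likelihood test, 10 of 10 genes differed between HCCLM3 alone and LX2 alone at a Benjamini-Hochberg adjusted p under 0.05, 2 higher in HCCLM3 and 8 lower. Across all genes tested 71.7% differed (34.0% higher, 37.7% lower), so a call here is common. By FPKM the libraries did not overlap for 1 gene on the higher side and 9 on the lower, against 28.2% and 51.4% of all genes. The median log2 ratio of all genes was -0.13, and -0.51 when only library totals were scaled, so ratios are read against that shift.

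IL6, the founding ligand, stood at 0.0806, 0.155 and 0.318 FPKM in HCCLM3 alone, against 17.4, 16.2 and 13.7 FPKM in LX2 alone. The lines did not overlap, and the level in HCCLM3 rested on 17, 30 and 56 counts. It was 62.9-fold lower in HCCLM3 alone (log2 ratio -5.98, SE 0.46, adjusted p = 4.49e-05, edgeR). LIF was 2.60 ± 0.298 FPKM in HCCLM3 alone and 4.90 ± 0.130 FPKM in LX2 alone (SD, n = 3 each), a log2 ratio of -0.53. IL11, a ligand of fibroblasts, was 0.218 ± 0.0975 FPKM in HCCLM3 alone and 0.973 ± 0.184 FPKM in LX2 alone, a log2 ratio of -1.77. All 3 ligands were thus lower in HCCLM3, by sizes that differed widely.

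IL6R, the chain that binds IL-6, showed the reverse order. It stood at 7.31, 9.15 and 8.73 FPKM in HCCLM3 alone, against 0.257, 0.533 and 0.264 FPKM in LX2 alone. It was 30.9-fold higher in HCCLM3 alone (log2 ratio 4.95, SE 0.33, adjusted p = 2.42e-05, edgeR). The signal-passing chain IL6ST was 6.60 ± 1.38 FPKM in HCCLM3 alone and 14.6 ± 0.259 FPKM in LX2 alone (SD, n = 3 each), a log2 ratio of -0.76. OSMR was 5.04 ± 0.568 FPKM in HCCLM3 alone and 30.6 ± 0.264 FPKM in LX2 alone. LIFR was 0.970 ± 0.165 FPKM in HCCLM3 alone and 6.56 ± 0.313 FPKM in LX2 alone. By the edgeR estimate, which scales libraries otherwise than FPKM, OSMR was 4.65-fold and LIFR 5.18-fold lower in HCCLM3. RICTOR, which overlaps OSMR on the opposite strand, had 3214 counts in HCCLM3 alone and 24136 in LX2 alone, against 9575 and 50296 of OSMR. AC016596, opposite IL6ST, went the other way, with 4277 counts in HCCLM3 alone and 980 in LX2 alone. The use of strand in counting is not stated, and the part of these overlaps in the ratios was not tested. The receptor for IL-6 and those for oncostatin M and LIF were thus highest in different lines.

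JAK1, the main kinase of gp130, was 5.67 ± 0.770 FPKM in HCCLM3 alone and 13.4 ± 1.39 FPKM in LX2 alone (SD, n = 3 each; log2 ratio -0.86). RAVER2, which overlaps JAK1 on the opposite strand, had 0 counts in HCCLM3 alone and 9845 in LX2 alone, against 18890 and 38669 of JAK1. STAT3 was 6.64 ± 0.515 FPKM in HCCLM3 alone and 16.2 ± 0.463 FPKM in LX2 alone (log2 ratio -0.90). SOCS3 was 9.06 ± 0.244 FPKM in HCCLM3 alone and 10.2 ± 0.402 FPKM in LX2 alone. Its direction depended on the scaling: the log2 ratio was 0.21 in the test (adjusted p = 0.0291, edgeR) and -0.17 on library totals, its call was lost in 6 of 9 alternative settings, and the FPKM of all HCCLM3 alone libraries lay below those of LX2, so no direction is given for SOCS3.

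**Figure D1:**
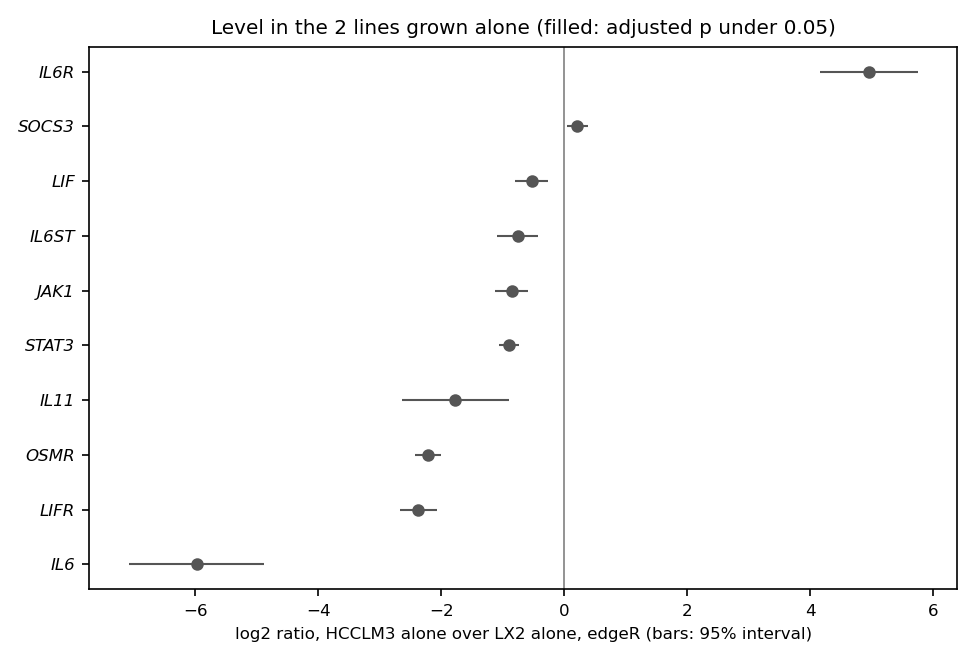
The plot of the lines grown alone gives the log2 ratio of HCCLM3 alone over LX2 alone for each gene on the horizontal axis, with points for the edgeR estimate, bars for its 95% interval and filled points for an adjusted p under 0.05. IL6R lies far to the right at 4.95 and IL6 far to the left at -5.98, while SOCS3, at 0.21, turned to -0.17 on library totals.

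The order of the levels within each line was as follows. In HCCLM3 with LX2, SOCS3 was highest (21.6 FPKM on average), then OSMR (11.2), STAT3 (9.93), IL6ST (9.10), IL6R (7.31), JAK1 (6.23), LIF (3.46), LIFR (1.04), IL6 (0.326) and IL11 (0.302). OSMR, STAT3 and IL6ST overlapped with their neighbours in that order, and so did IL6 and IL11. In HCCLM3 alone, SOCS3 (9.06) and IL6R (8.40) led without being apart, and STAT3, IL6ST, JAK1 and OSMR formed a run from 6.64 to 5.04 FPKM in which neighbours overlapped. In LX2 with HCCLM3, OSMR (36.8) led, IL6 (19.95) and SOCS3 (19.6) overlapped, and IL6ST (12.2) and STAT3 (12.1) overlapped. In LX2 alone, OSMR (30.6) led, and STAT3, IL6, IL6ST and JAK1 overlapped in a run from 16.2 to 13.4 FPKM. IL6R was last in both LX2 groups, at 1.36 FPKM with HCCLM3 and 0.351 FPKM alone.

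Co-culture left HCCLM3 with more SOCS3, OSMR and STAT3. These 3 of 10 genes rose and none fell in HCCLM3 with LX2 against HCCLM3 alone, at an adjusted p under 0.05 (edgeR). Of all 18045 genes tested 21.7% were called; 10.1% rose and 11.6% fell, or 1829 and 2095 genes; on library totals 2977 rose and 1039 fell, and the median log2 change of all genes was 0.03 in the test and 0.21 on library totals.

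SOCS3, the feedback inhibitor, stood at 21.2, 21.7 and 21.8 FPKM in HCCLM3 with LX2, against 8.78, 9.20 and 9.19 FPKM in HCCLM3 alone. The 2 groups lay far apart with little spread within each. The rise was 2.12-fold (log2 change 1.08, SE 0.07, adjusted p = 0.000547, edgeR). OSMR, the oncostatin M receptor, stood at 9.73, 12.6 and 11.2 FPKM in HCCLM3 with LX2, against 4.72, 5.70 and 4.70 FPKM in HCCLM3 alone. All co-cultured libraries were above all others, with a rise of 1.97-fold (log2 change 0.98, SE 0.12, adjusted p = 0.00285, edgeR). STAT3 stood at 9.56, 10.6 and 9.59 FPKM in HCCLM3 with LX2, against 6.12, 7.15 and 6.65 FPKM in HCCLM3 alone. It rose 1.33-fold (log2 change 0.41, SE 0.08, adjusted p = 0.0142, edgeR), and without HCCLM3 alone replicate 3 the adjusted p was 0.0540.

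The other 7 genes did not pass the test in HCCLM3. IL6R, the receptor that this line supplies, stood at 7.03, 6.92 and 7.98 FPKM with LX2, against 7.31, 9.15 and 8.73 FPKM alone; the groups overlapped, and its log2 change was -0.36 (SE 0.11, adjusted p = 0.0501, edgeR). It passed with DESeq2 (adjusted p = 0.0221) and without HCCLM3 alone replicate 1 (adjusted p = 0.0405). IL6ST stood at 9.04, 9.68 and 8.58 FPKM with LX2, against 5.39, 8.10 and 6.31 FPKM alone. The groups did not overlap, which on the higher side held for 5 of the 10 genes and 31.7% of all genes, and on the lower side for 0 and 12.5%. The log2 change of 0.30 (95% interval -0.04 to 0.64) passed only without HCCLM3 alone replicate 2 (adjusted p = 0.0275, edgeR). LIF was 3.46 ± 0.214 FPKM in HCCLM3 with LX2 and 2.60 ± 0.298 FPKM in HCCLM3 alone (SD, n = 3 each; 95% interval of the log2 change -0.05 to 0.54). The ligands IL6 and IL11 stayed under 0.5 FPKM in every HCCLM3 library, with log2 changes of 0.67 (95% interval -0.75 to 2.09) and 0.31 (95% interval -0.67 to 1.29). The intervals were -0.42 to 0.29 for LIFR and -0.27 to 0.21 for JAK1, and the sign of both turned on library totals.

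LX2 changed in more of these genes: LIF, IL11, IL6R, OSMR, LIFR and SOCS3 rose and IL6ST and STAT3 fell in LX2 with HCCLM3 against LX2 alone. That is 6 of 10 up and 2 of 10 down at an adjusted p under 0.05 (edgeR), where 31.9% of all 19671 genes tested were called, 15.4% up and 16.6% down. By FPKM the libraries did not overlap for the same 6 on the higher side and 2 on the lower side, which held for 26.1% and 22% of all genes. In a group of bulk libraries, fewer cells of a kind and less RNA per cell cannot be told apart.

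Among ligands, IL11 stood at 2.73, 2.45 and 2.67 FPKM in LX2 with HCCLM3, against 0.925, 0.819 and 1.18 FPKM in LX2 alone. Every co-cultured library was above every library alone. It rose 2.62-fold (log2 change 1.39, SE 0.15, adjusted p = 0.000964, edgeR). LIF stood at 6.52, 6.56 and 6.76 FPKM in LX2 with HCCLM3, against 4.77, 4.91 and 5.03 FPKM in LX2 alone, a rise of 1.32-fold (log2 change 0.40, SE 0.05, adjusted p = 0.00202, edgeR). IL6 stood at 23.1, 17.2 and 19.5 FPKM in LX2 with HCCLM3, against 17.4, 16.2 and 13.7 FPKM in LX2 alone. The 2 groups of IL6 overlapped, and the log2 change of 0.31 (95% interval -0.01 to 0.63) did not pass (adjusted p = 0.130, edgeR). IL6 thus remained the most abundant of the 3 ligands in LX2 in either condition.

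Among receptors, IL6R stood at 1.93, 0.856 and 1.28 FPKM in LX2 with HCCLM3, against 0.257, 0.533 and 0.264 FPKM in LX2 alone. All libraries with HCCLM3 were higher, but they spread widely. The rise was 3.75-fold (log2 change 1.91, SE 0.40, adjusted p = 0.0136, edgeR), and the adjusted p was 0.0511 without LX2 alone replicate 3. HCCLM3 has much IL6R of its own, so partner transcripts were gauged from 57 genes that had 20 FPKM or more in HCCLM3 alone but under 0.1 FPKM in LX2 alone. Their rise in LX2 had a median of 0.558% and a highest value of 3.12% (CXCL5) of the HCCLM3 alone level, while that of IL6R was 11.96% of it. Set against the level in HCCLM3 with LX2, the 57 genes had a median of 0.551% and a highest value of 4.31%, and IL6R stood at 13.7%. LIFR stood at 9.39, 8.61 and 8.62 FPKM in LX2 with HCCLM3, against 6.28, 6.49 and 6.90 FPKM in LX2 alone, and rose 1.33-fold (log2 change 0.41, SE 0.05, adjusted p = 0.00181, edgeR). LIFR-AS1, which overlaps LIFR on the opposite strand, had 847 counts in LX2 with HCCLM3 and 385 in LX2 alone, against 26028 and 18269 counts of LIFR; the labels do not state if counting used strand. OSMR rose 1.18-fold, with 37.1, 36.5 and 36.7 FPKM in LX2 with HCCLM3, against 30.8, 30.7 and 30.3 FPKM in LX2 alone (log2 change 0.23, SE 0.02, adjusted p = 0.000577, edgeR). IL6ST fell, with 12.5, 12.8 and 11.3 FPKM in LX2 with HCCLM3, against 14.5, 14.4 and 14.9 FPKM in LX2 alone (log2 change -0.28, SE 0.05, adjusted p = 0.00886, edgeR).

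Downstream of the receptors, STAT3 fell while its inhibitor rose. STAT3 stood at 11.6, 12.2 and 12.5 FPKM in LX2 with HCCLM3, against 16.7, 16.2 and 15.8 FPKM in LX2 alone. It was 1.37-fold lower (log2 change -0.45, SE 0.04, adjusted p = 0.000438, edgeR). SOCS3 stood at 19.7, 18.7 and 20.5 FPKM in LX2 with HCCLM3, against 9.79, 10.2 and 10.6 FPKM in LX2 alone, and rose 1.88-fold (log2 change 0.91, SE 0.06, adjusted p = 7.71e-05, edgeR). JAK1 stood at 13.9, 14.5 and 14.2 FPKM in LX2 with HCCLM3, against 12.4, 14.996 and 12.8 FPKM in LX2 alone. The JAK1 groups overlapped (95% interval of the log2 change -0.12 to 0.23), and its change passed only without LX2 alone replicate 2 (adjusted p = 0.0373, edgeR).

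**Figure D2:**
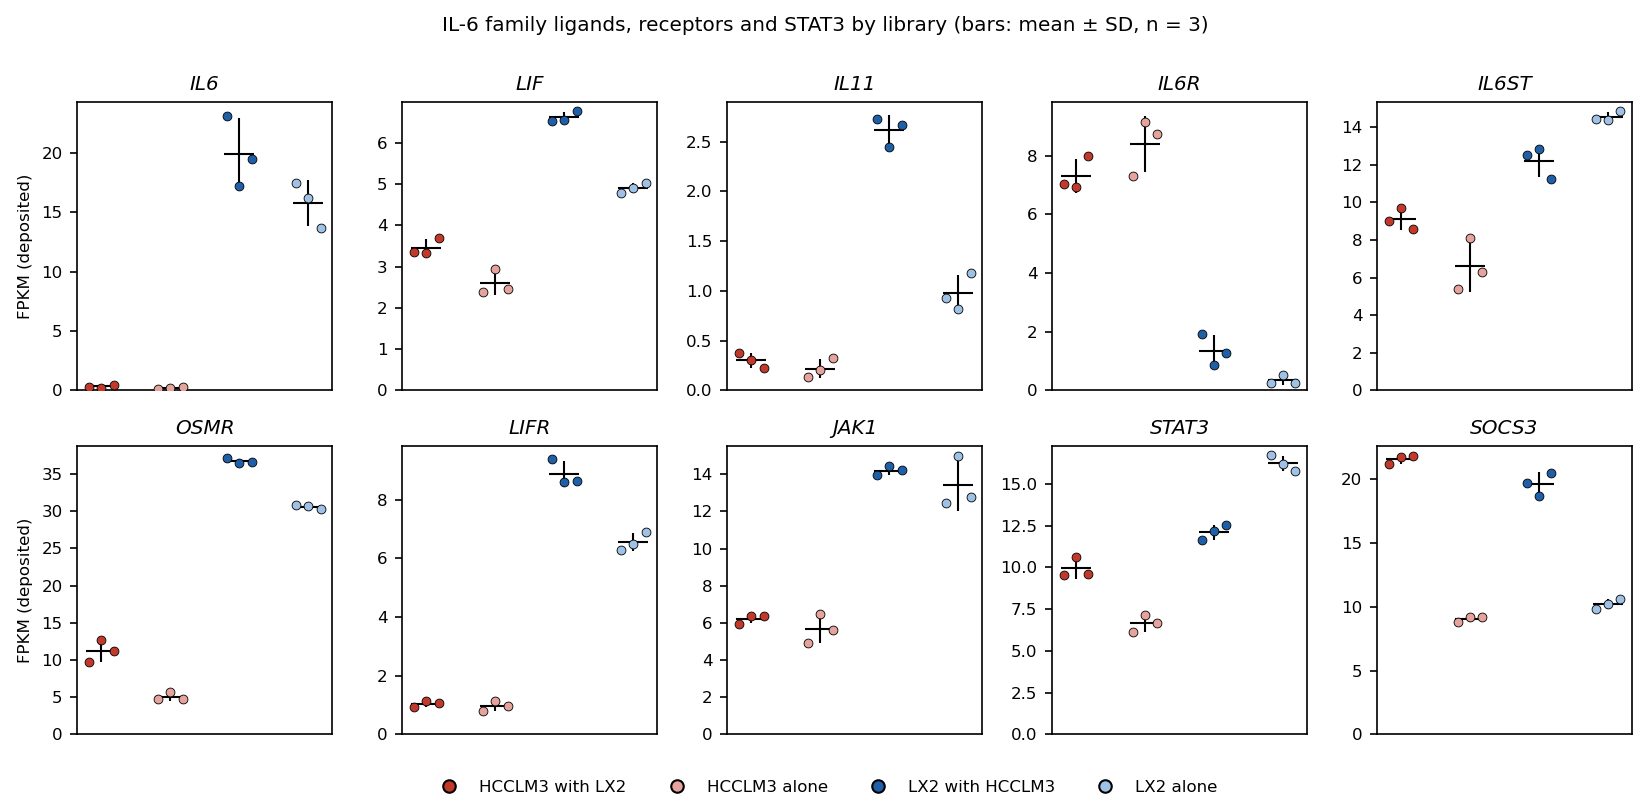
Each panel plots the deposited FPKM of 1 gene on the vertical axis, with a point per library, for HCCLM3 with LX2, HCCLM3 alone, LX2 with HCCLM3 and LX2 alone, and bars for mean ± SD (n = 3). SOCS3 rose in both lines, STAT3 moved in opposite directions, and IL6R was high in HCCLM3 and IL6 in LX2.

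Whether the lines responded differently was tested as the HCCLM3 change minus the LX2 change over all 12 libraries. STAT3, OSMR and IL6ST moved more upward in HCCLM3, and IL6R and LIFR moved more upward in LX2. These are 5 of 10 genes, 3 higher and 2 lower, where 20.7% of all 21959 genes differed (9.39% higher, 11.3% lower). STAT3 rose in HCCLM3 and fell in LX2, a difference of 0.84 on the log2 scale (SE 0.09, adjusted p = 7.59e-05, edgeR). The difference was -2.30 for IL6R (SE 0.43, adjusted p = 0.00324) and 0.71 for OSMR (SE 0.12, adjusted p = 0.00211, edgeR). Those of IL6ST (0.55, adjusted p = 0.0363) and LIFR (-0.50, adjusted p = 0.0400, edgeR) were lost in 11 and 12 of 16 alternative settings, with adjusted p up to 0.0893 and 0.196; leaving out any LX2 library lost both.

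SOCS3 rose in both lines, and the difference between its changes was 0.14 (95% interval -0.04 to 0.31, adjusted p = 0.264, edgeR). On library totals it was 0.32 and passed (adjusted p = 0.0202, edgeR). The rise of IL11 in LX2 differed from its change in HCCLM3 by -1.10 (95% interval -2.04 to -0.17), which did not pass (adjusted p = 0.0951, edgeR) but did with DESeq2 (adjusted p = 0.0419) and without HCCLM3 alone replicate 1 (adjusted p = 0.0292, edgeR). The differences of IL6 (95% interval -0.88 to 1.56), LIF (-0.48 to 0.11) and JAK1 (-0.40 to 0.17) did not pass either.

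The rises of OSMR, STAT3 and SOCS3 in HCCLM3 were also set beside the LX2 level. They were 20.1%, 20.3% and 122.4% of the level in LX2 alone. Over 41 genes that had 20 FPKM or more in LX2 alone but under 0.1 FPKM in HCCLM3 alone, the rise in HCCLM3 had a median of 0.143% and a highest value of 0.942% of that level. These 41 genes gauge LX2 transcripts only. HBB, a red cell marker, was 29.9 FPKM in HCCLM3 with LX2 and at 0 in LX2 alone, so they do not gauge its source. The part of such transcripts in the 3 rises was not tested. RICTOR, which overlaps OSMR on the opposite strand, had 2988 counts in HCCLM3 with LX2 and 3214 in HCCLM3 alone, while OSMR had 19272 and 9575 counts.

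**Figure D3:**
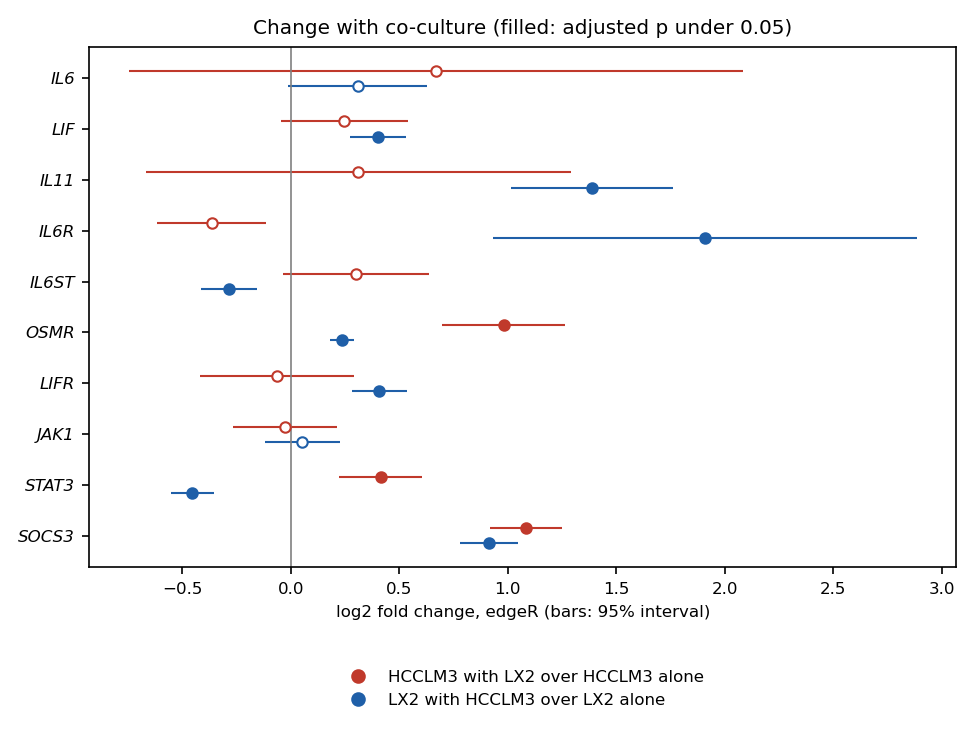
The plot of change with co-culture gives the log2 fold change on the horizontal axis for each gene, HCCLM3 with LX2 over HCCLM3 alone above and LX2 with HCCLM3 over LX2 alone beneath it, with bars for the 95% interval and filled points for an adjusted p under 0.05. The intervals of STAT3 lie on opposite sides of 0, those of SOCS3 overlap near 1, and LIFR and JAK1 in HCCLM3 turn sign on library totals.

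The other genes of the pathway were followed in 9 lists, which together hold the family's other ligands and receptors, its kinases, its inhibitors and its targets. OSM, the oncostatin M ligand of OSMR, was near absent, with 0 counts in HCCLM3 with LX2 and 4 in HCCLM3 alone, and 4 counts in LX2 with HCCLM3 and 4 in LX2 alone, over 3 libraries each. CLCF1, a ligand that acts through the receptor of CNTF, was 22.2 ± 1.19 FPKM in HCCLM3 with LX2 and 15.1 ± 1.56 FPKM in HCCLM3 alone, and 3.73 ± 0.527 FPKM in LX2 with HCCLM3 and 4.02 ± 0.246 FPKM in LX2 alone (SD, n = 3 each). That receptor, CNTFR, had 0 counts in HCCLM3 with LX2 and in HCCLM3 alone. It had 5 counts in LX2 with HCCLM3 and 26 in LX2 alone, over 3 libraries each. CLCF1 rose in HCCLM3 (log2 change 0.39, adjusted p = 0.0442, edgeR; lost in 7 of 12 alternative settings, among them leaving out any 1 library, with adjusted p up to 0.134). It was the 1 of 3 other ligands tested that passed in that line, where 21.7% of all genes were called and 10.1% rose. CNTF, a nerve growth ligand, had log2 changes of 1.54 in HCCLM3 and 0.20 in LX2 that did not pass, nor did CLCF1 in LX2 (-0.13).

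IL11RA, the receptor of IL-11, rose in both lines at low levels: it was 0.451 ± 0.0489 FPKM in HCCLM3 with LX2 and 0.181 ± 0.0112 FPKM in HCCLM3 alone (log2 change 1.15, adjusted p = 0.0121), and 0.705 ± 0.0250 FPKM in LX2 with HCCLM3 and 0.354 ± 0.0263 FPKM in LX2 alone (0.94, adjusted p = 0.00186, edgeR). IL27RA, which pairs with gp130 for IL-27, moved in opposite directions. It was 5.75 ± 0.546 FPKM in HCCLM3 with LX2 and 3.22 ± 0.139 FPKM in HCCLM3 alone, and 4.41 ± 0.0459 FPKM in LX2 with HCCLM3 and 10.5 ± 0.650 FPKM in LX2 alone (SD, n = 3 each). Its difference between the lines was 1.92 (adjusted p = 2.98e-06, edgeR). IL31RA, tested at low counts, did not pass in either line (log2 changes -0.94 and -1.08).

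Among other kinases and STATs, 1 of 8 rose and 1 fell in HCCLM3, and 2 of 9 rose and 2 fell in LX2, where 21.7% of all genes were called in HCCLM3 and 31.9% in LX2. JAK3, a kinase of common gamma chain receptors, rose in both lines, with log2 changes of 2.15 in HCCLM3 (adjusted p = 0.00102) and 1.35 in LX2 (adjusted p = 0.00645, edgeR). Its levels were low, at 0.958 ± 0.0280 FPKM in HCCLM3 with LX2 and 0.192 ± 0.0365 FPKM in HCCLM3 alone. In LX2 it was 0.535 ± 0.0274 FPKM with HCCLM3 and 0.206 ± 0.0681 FPKM alone. JAK2 fell in both lines, by 0.80 in HCCLM3 (adjusted p = 0.0250, lost in 9 of 12 alternative settings, with adjusted p up to 0.0894) and by 1.62 in LX2 (adjusted p = 3.03e-05, edgeR), both on the log2 scale. It was 0.206 ± 0.0126 FPKM in HCCLM3 with LX2 and 0.319 ± 0.0369 FPKM in HCCLM3 alone. In LX2 it was 0.773 ± 0.0530 FPKM with HCCLM3 and 2.34 ± 0.0534 FPKM alone. STAT2, a transcription factor of interferon signals, had a log2 change of 0.57 in HCCLM3 that did not pass but passed in 3 of 12 alternative settings.

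Of 16 other inhibitors of the pathway, 1 rose and 2 fell in HCCLM3, and 4 rose and 5 fell in LX2, where 21.7% and 31.9% of all genes were called. CISH, which is itself induced by STAT5, moved in opposite directions, with log2 changes of -0.78 in HCCLM3 (adjusted p = 0.00777) and 1.01 in LX2 (adjusted p = 0.00770, edgeR). The phosphatase PTPN1 did the same, at -0.39 in HCCLM3 (adjusted p = 0.00720, and 0.0512 on library totals) and 0.25 in LX2 (adjusted p = 0.00209, edgeR). PIAS3, an inhibitor of STAT3 binding to DNA, rose by 0.33 in HCCLM3 (adjusted p = 0.0400, edgeR), a call lost in 8 of 12 alternative settings, among them leaving out any 1 library, with adjusted p up to 0.125. In LX2, SOCS2, a brake on growth hormone signals, rose by 1.09 (adjusted p = 0.00179), and SOCS5 and SOCS6 fell, with log2 changes of -0.65 (adjusted p = 3.17e-05) and -0.51 (adjusted p = 0.000449, edgeR). The median log2 change of these 16 inhibitors was -0.03 in HCCLM3 and -0.09 in LX2, beside 0.03 and 0.01 over all genes tested.

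STAT3 targets outside the acute phase moved both ways in each line. In HCCLM3, 6 of 19 rose and 3 fell, with a median log2 change of 0.20, where 10.1% of all genes rose and 11.6% fell, with a median of 0.03. In LX2, 5 of 20 rose and 9 fell, with a median of -0.44, where 15.4% of all genes rose and 16.6% fell, with a median of 0.01. CEBPB, an acute phase transcription factor that was singled out after its values were seen, rose in both lines. CEBPD, a transcription factor of the acute phase, was 32.9 ± 5.68 FPKM in HCCLM3 with LX2 and 10.6 ± 0.518 FPKM in HCCLM3 alone (log2 change 1.46, adjusted p = 0.00122), and 24.5 ± 1.05 FPKM in LX2 with HCCLM3 and 34.3 ± 1.56 FPKM in LX2 alone (-0.51, adjusted p = 0.00105, edgeR). BCL3, a co-factor of NF-kB, rose by 0.97 in HCCLM3 (adjusted p = 0.00122) and had a log2 change of -0.39 in LX2 (adjusted p = 0.00550, edgeR). ICAM1, an adhesion molecule, rose by 0.78 in HCCLM3 (adjusted p = 0.00102, edgeR). In LX2, JUNB, a part of AP-1, HIF1A, the transcription factor of the hypoxia response, and the mucin MUC1 fell, with log2 changes of -0.66, -0.60 and -1.20 (adjusted p = 3.41e-05, 2.17e-05 and 3.50e-05, edgeR).

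Of the acute phase genes, the liver's response to IL-6, those with enough counts to test mostly rose in HCCLM3. Of 12 genes listed as type 2, the class that answers to IL-6 alone, 7 could be tested. Of these, 6 rose and none fell, with a median log2 change of 2.09, where 10.1% of all genes rose. The other 5 had too few counts, LBP being at 0 in both groups. A gene that passed the filter through its co-cultured libraries had to differ, so the share of those tested is a description. The list includes TF, whose product, transferrin, falls in the acute phase. TF was 0.366 ± 0.0388 FPKM in HCCLM3 with LX2 and 0.0760 ± 0.0186 FPKM in HCCLM3 alone. Its rise runs against the acute phase direction, and TF was counted with the others in the median. FGB and FGA, chains of fibrinogen, were 33.4 ± 0.647 and 20.2 ± 0.751 FPKM in HCCLM3 with LX2 and 2.16 ± 0.0196 and 4.73 ± 0.177 FPKM in HCCLM3 alone (log2 changes 3.79 and 1.92, adjusted p = 6.67e-06 and 0.000149, edgeR). FGL1, a fibrinogen-like protein of hepatocytes, rose by 1.35 on the log2 scale (adjusted p = 0.000515, edgeR). Of 10 type 1 genes, which answer to IL-1 and IL-6 together, 6 could be tested. Of these, 4 rose, with a median of 3.18, where 10.1% of all genes rose. The filter limits this share in the same way, so it too is a description. The median stayed 3.18 with SAA1 at its lower bound, which could not have changed it, because SAA1 stays the highest of the list there. LCN2, which binds iron carriers of bacteria, was 46.2 ± 1.86 FPKM in HCCLM3 with LX2 and 2.64 ± 0.548 FPKM in HCCLM3 alone, CFB, a complement factor, rose by 3.74 on the log2 scale (adjusted p = 0.000670), and ORM1 rose by 1.38 (adjusted p = 0.0165, edgeR), a call lost without HCCLM3 with LX2 replicate 1 or 3, with adjusted p up to 0.0647. SAA1, the classic serum marker, had 53 counts in HCCLM3 with LX2 and 0 in HCCLM3 alone, at least 19.6-fold higher against a floor of 3 counts over the group. LCN2 is also made by granulocyte precursors, whose markers moved with the group.

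In LX2, which is not a hepatocyte line, complement genes of the type 1 list fell. C3 was 1.53 ± 0.204 FPKM in LX2 with HCCLM3 and 18.2 ± 0.215 FPKM in LX2 alone (log2 change -3.60, adjusted p = 3.87e-06, edgeR). CFB fell to 1.91 ± 0.0496 FPKM in LX2 with HCCLM3, against 6.24 ± 0.426 FPKM in LX2 alone. LCN2, CP, the copper carrier, and FGL1 rose in LX2, where each was under 0.4 FPKM alone, and their rises were 0.896%, 2.21% and 1.27% of the level in HCCLM3 with LX2, within the range of the 57 partner genes. The call of LCN2 in LX2 was lost in 3 of 12 alternative settings, among them without LX2 alone replicate 3 or LX2 with HCCLM3 replicate 3, with adjusted p up to 0.0557 (edgeR). FGG, a fibrinogen chain, did not pass there (log2 change 2.45, adjusted p = 0.0732, edgeR) but did with DESeq2 (adjusted p = 0.0354).

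**Figure D4:**
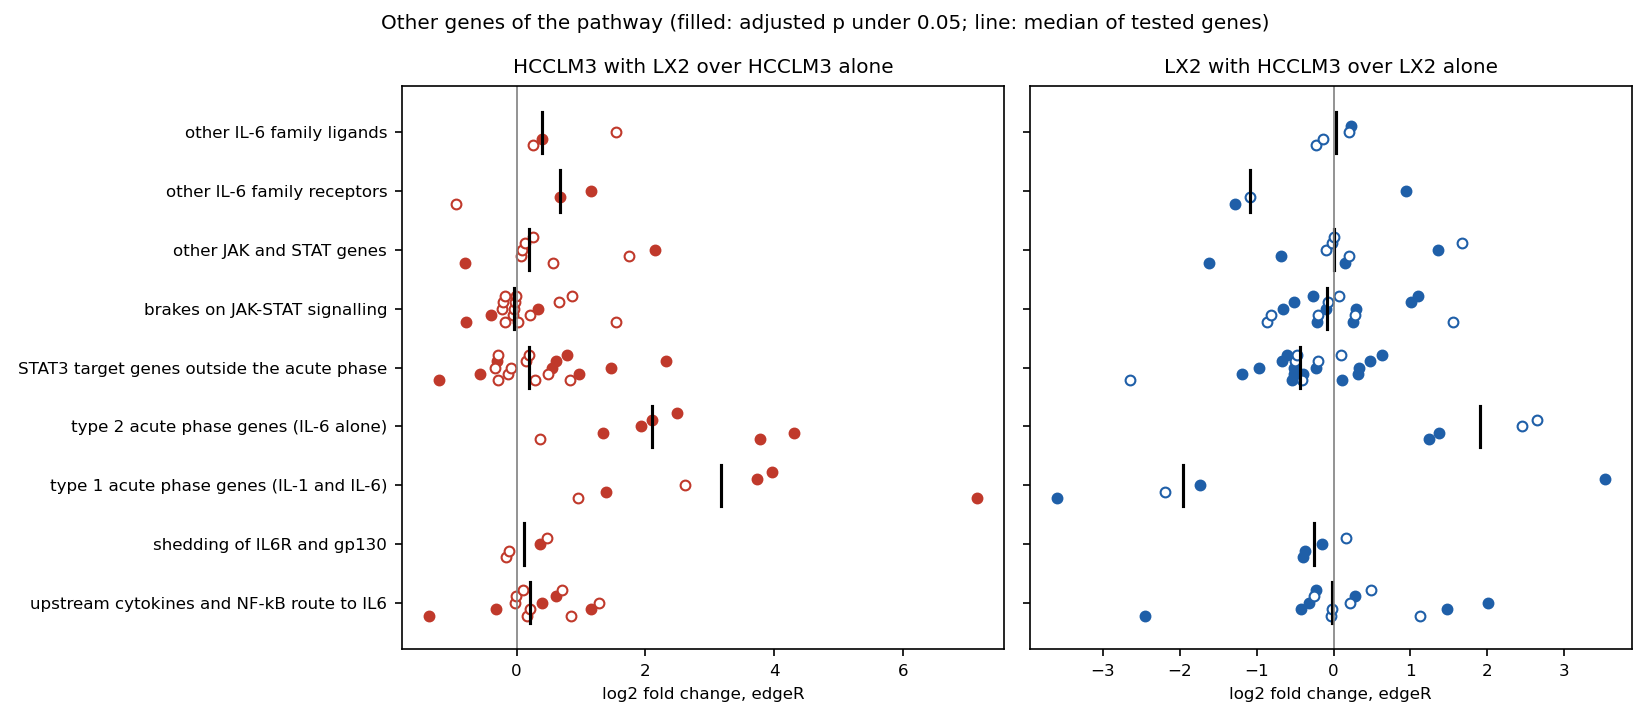
Each point is a tested gene of 1 list, placed on the horizontal axis by its log2 fold change, with HCCLM3 with LX2 over HCCLM3 alone on the left and LX2 with HCCLM3 over LX2 alone on the right, filled points for an adjusted p under 0.05 and a black line at the list's median. Both acute phase lists lie to the right in HCCLM3, with medians of 2.09 and 3.18, and the point farthest right is SAA1, whose fitted value depends on the prior count because HCCLM3 alone had 0 counts. The type 2 list includes TF, whose product falls in the acute phase.

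The last lists held proteases that free IL6R from the cell surface and genes of the NF-kB route that switches on IL6. FURIN, a protease that matures ADAM10 and ADAM17, moved in opposite directions, with log2 changes of 0.36 in HCCLM3 (adjusted p = 0.0246, lost in 6 of 12 alternative settings, among them without any 1 library other than HCCLM3 alone replicate 1, with adjusted p up to 0.0963) and -0.40 in LX2 (adjusted p = 0.000538, edgeR). ADAM17, the main sheddase of IL6R, and ADAM10 fell in LX2, with log2 changes of -0.37 (adjusted p = 0.0144) and -0.15 (adjusted p = 0.0214, lost in 6 of 12 alternative settings, among them without LX2 alone replicate 2 or LX2 with HCCLM3 replicate 2 or 3, with adjusted p up to 0.0918, edgeR). In HCCLM3 neither passed (0.47 for ADAM17, -0.16 for ADAM10, whose sign turned on library totals). Of 13 genes of the NF-kB route, 3 rose and 2 fell in HCCLM3, and 3 rose and 4 fell in LX2, with median log2 changes of 0.21 and -0.02, where 21.7% and 31.9% of all genes were called. NFKBIA, the inhibitor that NF-kB itself induces, was 17.0 ± 1.98 FPKM in HCCLM3 with LX2 and 9.91 ± 0.696 FPKM in HCCLM3 alone, and 9.28 ± 1.08 FPKM in LX2 with HCCLM3 and 49.8 ± 2.77 FPKM in LX2 alone (SD, n = 3 each). Its difference between the lines was 3.03 (adjusted p = 5.70e-07, edgeR). ZC3H12A and ZFP36, both of which degrade IL6 mRNA, rose by 1.16 and 0.40 in HCCLM3 (adjusted p = 0.00122 and 0.0112, edgeR). In LX2, NFKB2 fell, with a log2 change of -0.31 (adjusted p = 0.000601), and IL1R1, the IL-1 receptor, rose by 2.01 (adjusted p = 0.00130, edgeR) to 0.437 ± 0.0217 FPKM with HCCLM3, against 0.106 ± 0.0315 FPKM alone. The rise of IL1R1 was 3.61% of the level in HCCLM3 with LX2, within the range of the 57 partner genes.

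The genes whose pattern was most like that of a ligand or of SOCS3 were found by Pearson's r of log2(CPM + 1) over the 12 libraries, among 16464 genes with at least 1 CPM on average in a group. For the ligands the libraries share their line, which sets most of the likeness. Among the closest to IL6 were MARK3 (r = 0.998) and NREP (0.998). Closest to LIF were KANTR (0.996), RNF217 (0.995) and PCGF1 (0.991), and closest to IL11 were AC011346 (0.993), BHLHE40 (0.990) and PTP4A1 (0.988). Closest to SOCS3 were CLK2 (0.983), PRKAB2 (0.981) and ZDHHC11B (0.978), genes that, like it, had higher CPM in both co-cultured groups.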

How the data were processed

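Per the labels' protocols, polyadenylated RNA was sequenced from both ends. The submitters' processing notes list StringTie 1.3.0, HISAT2 2.0 and Bowtie 0.12.2; the build they name, mm8, is a mouse build, although the deposited identifiers are human. The labels also name adipose RNA and different sequencers, and do not say how the co-cultured lines were parted. Raw counts and FPKM values stand side by side in 1 deposited table per line, per the file headers. Genes missing from the LX2 table were entered as 0. The gene lengths implied by count and FPKM agreed within 5% for 99.5% of 16395 genes, so the lines were compared on counts.

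Counts were tested with edgeR 4.0.16 (quasi-likelihood, filterByExpr with a minimum count of 10 and a total of 15, TMM, Benjamini-Hochberg over all genes; R 4.3.3), per line, for the difference over all 12 libraries, and between the lines alone. Calls are at an adjusted p under 0.05, two-sided. Intervals cover 95%. Alternatives were DESeq2 1.42.0, library totals, no filter, limma 3.58.1 on log2(FPKM + 1) and log2(FPKM + 0.1), a replicate block and leaving out each library. The code was tested on simulated data. Of each other list, the 3 genes with the smallest p per line are named; OSM and SAA1 in HCCLM3 and CISH, PTPN1, CEBPD and BCL3 in LX2 were added after their values were seen. Some genes that the rule picks are not reported here. The genes and lists were chosen with earlier results of these data known. Replicate numbers were not used to pair the libraries in the main tests. Of the 10 genes, 7 are overlapped by another counted gene, and the use of strand in counting is not stated.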

Additional observations from a re-analysis of the deposited data

Results flagged for a closer look

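Each gene below was picked out because the test of the difference itself, the HCCLM3 change minus the LX2 change on the log2 scale over 12 libraries, passed an adjusted p under 0.05 (edgeR quasi-likelihood test, Benjamini-Hochberg over all genes). A positive value means that the gene moved more upward in HCCLM3 with LX2 than in LX2 with HCCLM3. Among receptors and signal genes of the family the difference was -2.30 for IL6R, 0.55 for IL6ST, 0.71 for OSMR, -0.50 for LIFR and 0.84 for STAT3. It was 1.92 for IL27RA and 0.79 for JAK2, which fell in both lines.

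Among inhibitors the difference was -1.82 for CISH, 0.61 for SOCS5, -0.67 for PTPN1 and 0.57 for PIAS3. Among STAT3 targets outside the acute phase it was 1.19 for JUNB, 1.33 for BCL3, 1.94 for CEBPD, 0.65 for ICAM1 and 1.65 for MUC1. Of the acute phase genes, CP differed by 1.09, C3 by 6.19 and CFB by 5.44. C3 and CFB were low in HCCLM3, at 0.971 and 1.65 FPKM even with LX2. The log2 change of CFB in HCCLM3 ran from 1.27 to 4.06 over the alternative settings. The rise of CP in LX2 lay within the range of the 57 partner genes. FGA differed by -4.35, but LX2 alone had 0 counts of it and LX2 with HCCLM3 had 32, so its fitted value depends on the prior count. The difference was 0.72 for the protease FURIN, 3.03 for NFKBIA and 1.37 for ZC3H12A.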

How the results depend on the processing

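In HCCLM3, 1829 genes rose and 2095 fell in the edgeR test; the counts were 2977 and 1039 on library totals, 3104 and 1106 with limma on log2(FPKM + 1), and 3146 and 1110 with limma on log2(FPKM + 0.1). On these same 3 settings the changes of LIFR (0.11, 0.0525 and 0.0987 on the log2 scale), JAK1 (0.15, 0.12 and 0.14) and ADAM10 (0.0117, 0.0104 and 0.0149) in HCCLM3 turned positive; none of them had been called. DESeq2 called 1 of the 10 genes lower in HCCLM3 (IL6R) where edgeR called 0. For the difference between the lines, 1588 genes were lower on library totals, against 2483, 1 of the 10 genes was lower on library totals and 1 without the filter, against 2, and JAK1 stood at 0.0622. Between the lines alone, 1 gene was higher on library totals and 1 without the filter, against 2. SOCS3 stood at -0.17 on library totals and, without the filter, at 0.21 with an adjusted p of 0.0582 (edgeR). The cause of these shifts was not tested.

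Leaving out each library in turn gave 821 to 1331 genes higher and 1097 to 1597 lower in HCCLM3, 2325 to 2517 and 2594 to 2692 in LX2, 1557 to 2044 and 2002 to 2394 for the difference, and 6283 to 6661 and 6754 to 7757 between the lines alone. Of the 10 genes, 2 to 4 rose and 0 to 1 fell in HCCLM3, 5 to 7 rose and 2 fell in LX2, 2 to 3 were higher and 1 to 3 lower for the difference, and 1 to 2 were higher and 8 lower between the lines alone. The log2 change in HCCLM3 then ran over -0.175 to 0.0502 for LIFR and -0.108 to 0.0671 for JAK1, and the difference of IL6 over -0.0413 to 0.951.

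Same-numbered libraries deviated together only weakly or not at all (r = 0.054, 0.117 and 0.027 in HCCLM3, -0.049, 0.036 and -0.040 in LX2). Libraries with different numbers gave r from -0.090 to 0.035 in HCCLM3 and from -0.051 to 0.094 in LX2. With 3 libraries per group such values cannot exclude a pairing. With a replicate block, 3 of the 10 genes rose and 0 fell in HCCLM3 and 5 rose and 2 fell in LX2, where IL6R had an adjusted p of 0.0569 (edgeR), and 1419 and 2272 genes rose over all.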

Other observations

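STAT3 targets of growth and survival that the rule did not name moved in both directions; they were picked here after their values were seen. In HCCLM3, VEGFA, the vessel growth factor, was 3.82 ± 0.193 FPKM with LX2 and 0.678 ± 0.207 FPKM alone (SD, n = 3 each; log2 change 2.32, adjusted p = 0.00122, edgeR). BCL2L1, which blocks cell death, was lower, at 51.1 ± 2.74 FPKM with LX2 and 67.6 ± 1.84 FPKM alone (-0.57), and CCND1, the G1 cyclin, was 51.9 ± 3.33 FPKM with LX2 and 56.9 ± 2.81 FPKM alone (-0.30, adjusted p = 0.0233, edgeR). FOS, a part of AP-1, moved in opposite directions, with log2 changes of -1.20 in HCCLM3 and 0.33 in LX2. In LX2, the survival factor MCL1 was 128.6 ± 13.2 FPKM with HCCLM3 and 81.2 ± 9.59 FPKM alone (0.63), and BCL6, a repressor, was 3.10 ± 0.118 FPKM with HCCLM3 and 5.97 ± 0.194 FPKM alone (-0.97).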
